A study of Homo sapiens with 15 samples.

Results

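Notch signalling passes between touching cells. A ligand of the Jagged or Delta family on one cell binds a Notch receptor on its neighbour, the receptor is cut by ADAM proteases and then by gamma-secretase, and the freed intracellular domain enters the nucleus, where it joins the DNA-binding protein RBPJ and coactivators of the Mastermind family to switch on genes of the HES and HEY families of repressors. In breast tissue the pathway is known for its part in cell fate, and in breast tumours for its links with growth and invasion.

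The RNA of 10 genes of this pathway was followed through the knockdown of the Hippo pathway effectors YAP and TAZ. They are the receptors NOTCH1, NOTCH2 and NOTCH3, the ligands JAG1, JAG2 and DLL1, the nuclear partner RBPJ, and the targets HES1, HES2 and HEY1. The genes were picked by symbol, and all 10 were among the 18858 genes of the deposited count table. The cells were MDA-MB-231, an established human breast adenocarcinoma line of wild-type genotype by its label, and hence a single line in culture. They were untransfected (Control) or received pools of siRNA that target no gene (siControl), YAP1 (siYAP), WWTR1, the gene of TAZ (siTAZ), or YAP1 and WWTR1 together (siYAP+TAZ). Each pool was used at one final concentration, so the siYAP+TAZ cells received the amount of both, and the larger amount cannot be told apart from the co-knockdown. All transfected groups had 48 h of knockdown and then 5 to 6 h on gelatin-coated plates before polyadenylated RNA was sequenced.

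Each of the 5 groups had 3 libraries, numbered 16, 21 and 26 in Control, 17, 22 and 27 in siControl, 18, 23 and 28 in siYAP, 19, 24 and 29 in siTAZ, and 20, 25 and 30 in siYAP+TAZ. The library totals lay between 18696737 and 30107312 reads on genes, with a median of 22902846. YAP1 RNA was at 17.6% to 64.0% of the siControl mean in the siYAP libraries and at 41.5% to 51.8% in siYAP+TAZ, and WWTR1 RNA was at 14.1% to 45.8% in siTAZ and at 62.1% to 71.0% in siYAP+TAZ. The co-knockdown libraries thus kept more WWTR1 RNA than any siTAZ library. With edgeR, YAP1 did not pass the test in siYAP (log2 fold change -1.51, adjusted p = 0.099) or siYAP+TAZ (-1.06, adjusted p = 0.072). WWTR1 passed in siTAZ (-1.74, adjusted p = 0.019) but not in siYAP+TAZ (-0.62, adjusted p = 0.20). In each of these comparisons every knockdown library lay below every siControl library. A gene that did not pass is therefore not shown to be unchanged. The markers of the line VIM, CD44, AXL, CAV1 and KRT18 lay between 4893 and 43998 normalized counts in every library, though AXL and CAV1 fell in siYAP+TAZ against siControl, by 0.51 and 0.35 on the log2 scale (edgeR adjusted p = 0.00020 and 0.0065). ESR1 and CDH1 are not rows of the table, and GATA3, EPCAM and ERBB2, which were listed as low or absent in this line, were present at group means of 459 to 545, 283 to 348 and 2123 to 2647 normalized counts. Of the markers of other cell types, PTPRC stayed at or below 5.10 and LYZ at or below 12.8 normalized counts in all libraries and CD3E and CDH5 are not rows of the table, whereas PECAM1 was at a mean of 14.1 in siControl and 118 in siYAP+TAZ. The part of PECAM1-expressing cells, or of the fall in AXL and CAV1, in the results was not tested. In bulk RNA a lower normalized count can be a smaller share of expressing cells or less RNA of that gene per cell. These cannot be told apart.

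The start of HES1, the best known direct target among these genes, carries the letters that RBPJ is known to read, and is shown here beside the starts of JAG1 and HES2, the genes whose RNA passed the test in the co-knockdown. Each line gives the 250 bases just upstream of the first transcribed base in RefSeq, on the gene's own strand, in build GRCh38.p14. JAG1 is at chr20:10674000-10674249 on the minus strand, HES1 at chr3:194135898-194136147 on the plus strand and HES2 at chr1:6419920-6420169 on the minus strand. Capitals mark TGGGAA, the core of the RBPJ motif.
JAG1: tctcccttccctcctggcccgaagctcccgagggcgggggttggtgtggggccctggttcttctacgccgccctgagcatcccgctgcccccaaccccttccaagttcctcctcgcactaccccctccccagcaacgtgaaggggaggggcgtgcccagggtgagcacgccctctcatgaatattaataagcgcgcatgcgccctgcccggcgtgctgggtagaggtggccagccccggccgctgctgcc
HES1: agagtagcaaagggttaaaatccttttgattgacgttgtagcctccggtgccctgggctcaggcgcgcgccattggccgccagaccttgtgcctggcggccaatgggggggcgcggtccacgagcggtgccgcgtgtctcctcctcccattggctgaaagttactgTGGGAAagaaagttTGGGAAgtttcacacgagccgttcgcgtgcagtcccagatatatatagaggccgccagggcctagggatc
HES2: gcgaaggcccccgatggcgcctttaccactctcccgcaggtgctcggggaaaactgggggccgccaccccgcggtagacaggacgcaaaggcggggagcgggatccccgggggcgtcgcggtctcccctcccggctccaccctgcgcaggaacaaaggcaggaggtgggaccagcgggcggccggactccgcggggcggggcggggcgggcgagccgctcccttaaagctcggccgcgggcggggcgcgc
In HES1 the core occurred at positions -84 to -79 and -70 to -65, counted from the first transcribed base as 1, both on the strand of the gene and 8 bases apart. A search of both strands, from 250 bases upstream to 50 bases into the gene, found no TGGGAA in the windows of JAG1 and HES2. TGGGAA, whose reverse complement is TTCCCA, occurred in 24.0% of all 35116 promoter windows of that length. GGAATG, the core read by the TEAD factors that partner with YAP and TAZ, occurred in 14.0% of the windows and in none of the 8 genes of the 10 that have a window. CACNAG, the N-box read by HES repressors, occurred in 38.0% of the windows. It was found 4 times at HES1, at positions -165 to -160, -132 to -127, -58 to -53 and 16 to 21, once at HES2 (11 to 16), 2 times in overlapping letters at NOTCH1, once each at NOTCH2 and NOTCH3, and 2 times at RBPJ, where TGGGAA was also found 2 times, in another of its windows. JAG1 and JAG2 held neither. These motifs do not overlap one another in HES1. Such a match is a description of the letters and no evidence of binding, and DLL1 and HEY1 had no window.

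Untransfected cells and siControl cells gave the starting level of the pathway. Per kilobase of exon, the siControl level was highest for NOTCH2, at a mean of 479 ± 24.1 normalized counts (SD, n = 3), followed by NOTCH1 at 350 ± 36.0, RBPJ at 284 ± 36.8, HES1 at 259 ± 73.9 and JAG1 at 229 ± 45.2. Normalized counts are counts scaled to a common library size with TMM factors. These 5 genes stood well above the others. JAG2 was at 14.2 ± 1.38, HES2 at 9.39 ± 2.25, NOTCH3 at 4.53 ± 0.42, HEY1 at 3.604 ± 0.907 and DLL1 at 1.65 ± 0.59 normalized counts per kilobase. In siControl the libraries of NOTCH1, RBPJ, HES1 and JAG1 overlapped from each gene to the next in this order, as did those of NOTCH3 and HEY1. JAG1 was therefore the ligand with the highest level and NOTCH2 the receptor with the highest level. The lengths are those of all exons of a gene in GENCODE release 44 joined together, and a gene whose cells use only a short isoform is understated.

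**Figure D1:**
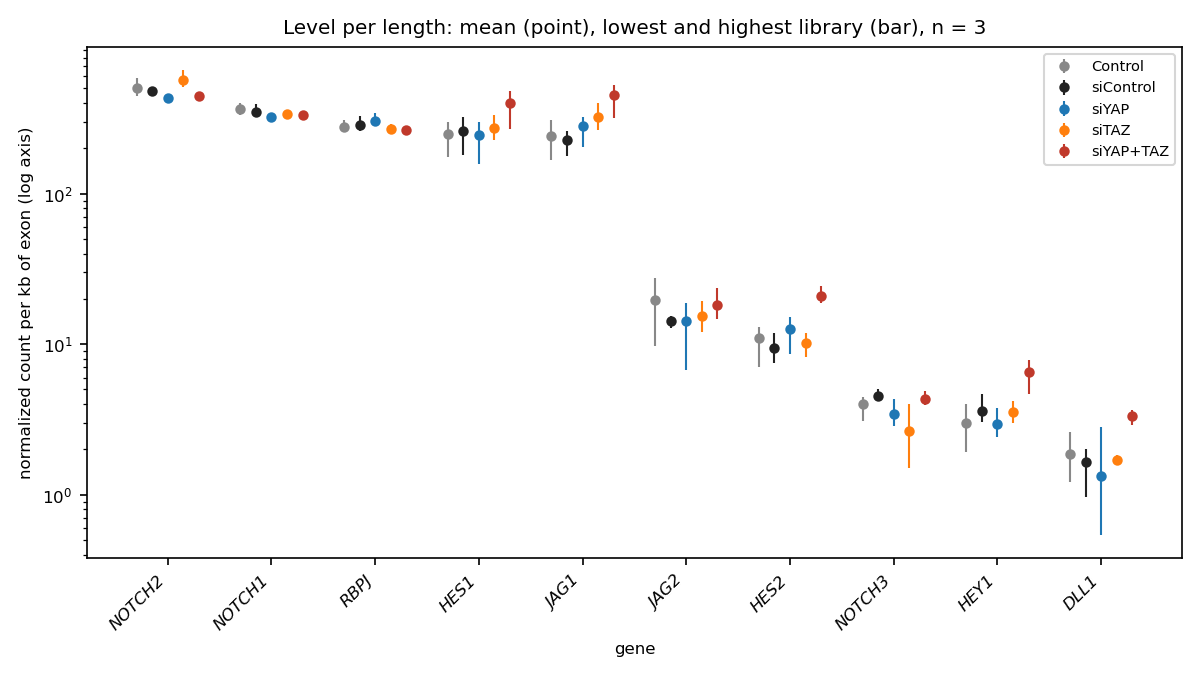
Normalized counts per kilobase of exon on a log axis for the 10 genes, ordered by their siControl mean, in the 5 groups. Points are means of 3 libraries and bars run from the lowest to the highest library. NOTCH2, NOTCH1, RBPJ, HES1 and JAG1 lie at or above 157 in every library, and the other 5 genes at or below 27.3.

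The order of the means differed in each knockdown. JAG1 stood above HES1 in siYAP, and above RBPJ and HES1 in siTAZ, where HEY1 also stood above NOTCH3. In siYAP+TAZ JAG1 came first, at a mean of 449 ± 116 normalized counts per kilobase (SD, n = 3), beside NOTCH2 at 447 ± 13.2 and HES1 at 397 ± 113, and the libraries of these genes overlapped. HES2, at 21.0 ± 2.84, stood above JAG2, at 18.2 ± 4.69, also with overlap.

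The effect of transfection alone was asked by comparing siControl with Control. None of the 10 genes passed the test, none had a p under 0.05 before adjustment, and in none did the 3 siControl libraries lie apart from the 3 Control libraries, against 5.83% of all genes that did. In the whole table edgeR called 0 genes past the adjusted p limit of 0.05, which is 0%, and 2.11% had an unadjusted p under 0.05. The log2 fold changes of the 10 genes lay between -0.47, for JAG2, and 0.25, for HEY1.

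The co-knockdown of YAP and TAZ gave the most called genes of the 3 knockdowns. In siYAP+TAZ against siControl, HES2 was 2.25-fold and JAG1 1.96-fold higher, while the receptors and RBPJ were 1.04- to 1.07-fold lower than in siControl and did not pass the test. Of the 10 genes, 1, HES2, passed both thresholds, an edgeR adjusted p of at most 0.05 and a log2 fold change of at least 1 in size, beside 3.46% of all genes. At the adjusted p alone 2 passed, HES2 and JAG1, beside 18.4% of all genes. In 4 of the 10, JAG1, DLL1, HES2 and HEY1, every siYAP+TAZ library lay above every siControl library, as in 18.2% of all genes, and in none did the libraries lie wholly below. The median log2 fold change was 0.48 over the 10 genes and -0.0048 over all genes.

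**Figure D2:**
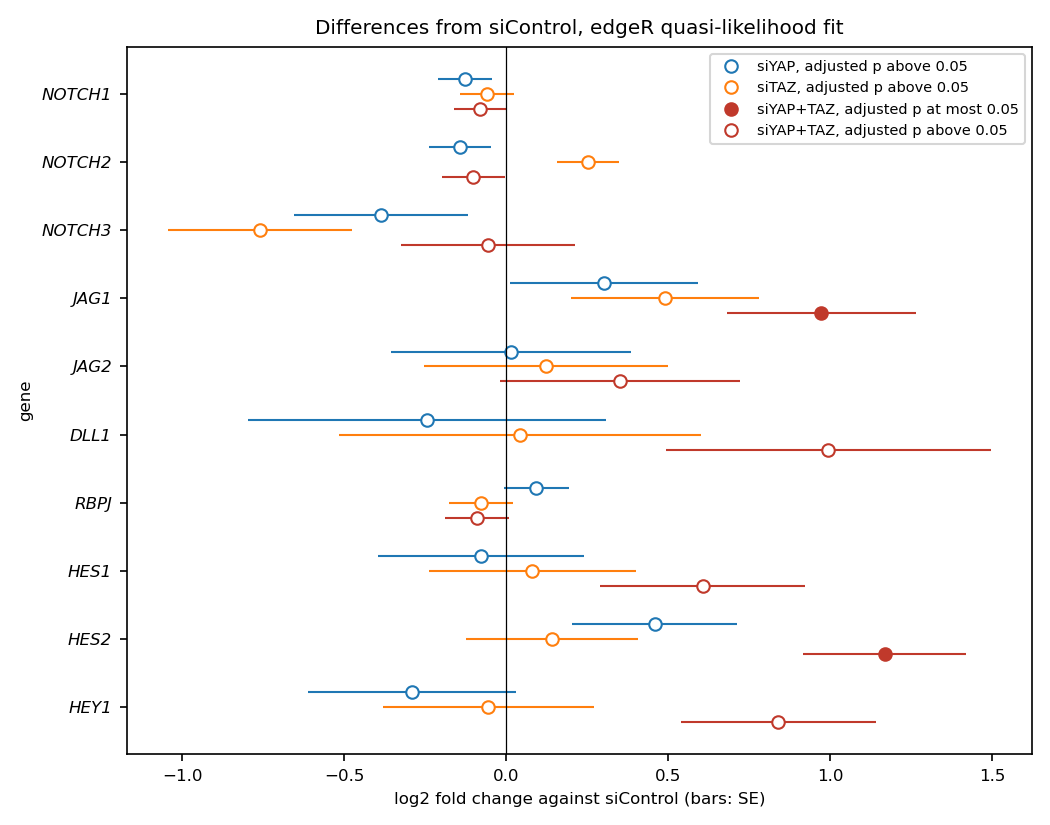
Log2 fold changes against siControl (horizontal axis) of the 10 genes in siYAP, siTAZ and siYAP+TAZ from one edgeR fit over 15 libraries. Bars are standard errors and filled points have an adjusted p of at most 0.05, which only HES2 and JAG1 in siYAP+TAZ reached.

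Among the receptors, NOTCH1 and NOTCH2 were abundant, and none of the 3 passed the test in the co-knockdown. NOTCH1 (chromosome 9, 136494433 to 136546048, minus strand) had normalized counts of 4240, 4036 and 4898 in siControl (libraries 17, 22 and 27) against 3974, 4193 and 4299 in siYAP+TAZ (20, 25 and 30). These groups overlapped, and the log2 fold change was -0.08 (edgeR, SE 0.08, adjusted p = 0.57). NOTCH2 (chromosome 1, 119911553 to 120100779, minus strand) had 8322, 7566 and 8187 in siControl and 7265, 7707 and 7474 in siYAP+TAZ. Library 25 lay within the siControl range, and the log2 fold change was -0.10 (SE 0.10, adjusted p = 0.53). NOTCH3 (chromosome 19, 15159038 to 15200995, minus strand), a receptor best known from vascular smooth muscle, had 40.0, 40.7 and 47.2 in siControl and 36.9, 46.2 and 39.5 in siYAP+TAZ, again overlapping, with a log2 fold change of -0.06 (SE 0.27, adjusted p = 0.92).

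Of the ligands, JAG1 passed the test, in 8 of the 15 alternatives as well. JAG1 (chromosome 20, 10637684 to 10673999, minus strand), which encodes Jagged1, had 2427, 2303 and 1645 normalized counts in siControl libraries 17, 22 and 27, 2883, 2285 and 1544 in Control libraries 16, 21 and 26, and 4725, 4872 and 2938 in siYAP+TAZ libraries 20, 25 and 30. Every siYAP+TAZ library lay above all Control and siControl libraries, and library 30 was far below the other siYAP+TAZ libraries. The log2 fold change against siControl was 0.97 (edgeR, SE 0.29, adjusted p = 0.040). The adjusted p was above 0.05 without siControl 17 (0.065), siControl 22 (0.082), siControl 27 (0.13), siYAP+TAZ 20 (0.11) or siYAP+TAZ 25 (0.12), with only these groups in the fit (0.058) and against Control (0.053), while the log2 fold change stayed between 0.82 and 1.18 in these and the other alternatives. With a replicate block, a term for each of the runs of library numbers 16 to 20, 21 to 25 and 26 to 30, JAG1 had an edgeR adjusted p of 2.8e-07, and 28.6% of all genes passed in place of 18.4%. A long non-coding RNA gene on the opposite strand covers 3.29% of the exonic bases of JAG1, and whether the strand was used in counting is not stated.

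JAG2 and DLL1 did not pass the test. JAG2 (chromosome 14, 105140982 to 105168824, minus strand), which encodes Jagged2, had 92.7, 98.9 and 81.5 normalized counts in siControl and 93.9, 150 and 105 in siYAP+TAZ, with overlap and a log2 fold change of 0.35 (edgeR, SE 0.37, adjusted p = 0.58). A long non-coding RNA gene on the same strand covers 7.33% of its exonic bases. DLL1 (chromosome 6, 170282206 to 170306565, minus strand), a Delta ligand, had 7.65, 3.70 and 7.51 in siControl and 13.1, 13.97 and 11.01 in siYAP+TAZ. Its siYAP+TAZ libraries were all higher, but they rest on 11 to 13 reads each, and the log2 fold change of 0.995 (SE 0.50) had an adjusted p of 0.19 with edgeR. FAM120B, at 877 to 1145 normalized counts in the 15 libraries, overlaps 9.69% of the exonic bases of DLL1 on the opposite strand, and its log2 fold change was 0.18 (adjusted p = 0.11).

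RBPJ (chromosome 4, 26163455 to 26435131, plus strand), through which all the receptors act on DNA, had 4068, 3973 and 4994 normalized counts in siControl and 3886, 4066 and 4287 in siYAP+TAZ. The groups overlapped, and the log2 fold change was -0.09 (edgeR, SE 0.10, adjusted p = 0.60).

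HES2 was the target gene with the smallest adjusted p in the fit without a block, and HES1 with the replicate block. HES2 (chromosome 1, 6412418 to 6424670, minus strand), a repressor of the HES family, had 40.8, 47.2 and 64.4 normalized counts in siControl libraries 17, 22 and 27, 68.9, 69.9 and 38.1 in Control libraries 16, 21 and 26, and 131, 110 and 101 in siYAP+TAZ libraries 20, 25 and 30. The siYAP+TAZ libraries lay above all 12 other libraries, whose highest value was 82.0 in siYAP library 18. The log2 fold change against siControl was 1.17 (edgeR, SE 0.25, adjusted p = 0.0030). It passed the adjusted p in all 15 alternatives tried, where the log2 fold change lay between 0.93 and 1.37, and only against Control (0.93) was it under the fold threshold. Of the 50-base stretches of its exons, 3.48% also occur in other genes.

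HES1 and HEY1 were higher on average. In the fit over all libraries without a block neither passed, and with the replicate block both did. HES1 (chromosome 3, 194136148 to 194138732, plus strand), the classical Notch target whose letter matches to the RBPJ core are printed above, had 669, 565 and 369 in siControl and 982, 921 and 551 in siYAP+TAZ. Library 30 lay within the siControl range, and the log2 fold change was 0.61 (edgeR, SE 0.32, adjusted p = 0.23). With the block it was 0.61 (SE 0.09, edgeR adjusted p = 6.1e-06). HEY1 (on chromosome 8), a related repressor and Notch target, had 25.5, 16.6 and 17.2 in siControl and 42.8, 39.7 and 25.7 in siYAP+TAZ. Its lowest siYAP+TAZ library lay just above its highest siControl library, and the log2 fold change was 0.84 (SE 0.30, adjusted p = 0.060). For HEY1 the adjusted p was at or under the threshold in 4 of 15 alternatives, with the replicate block (log2 fold change 0.85, 0.021), against Control (1.09, 0.021), without siControl 17 (1.08, 0.049) and without siYAP+TAZ 30 (1.05, 0.030).

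**Figure D3:**
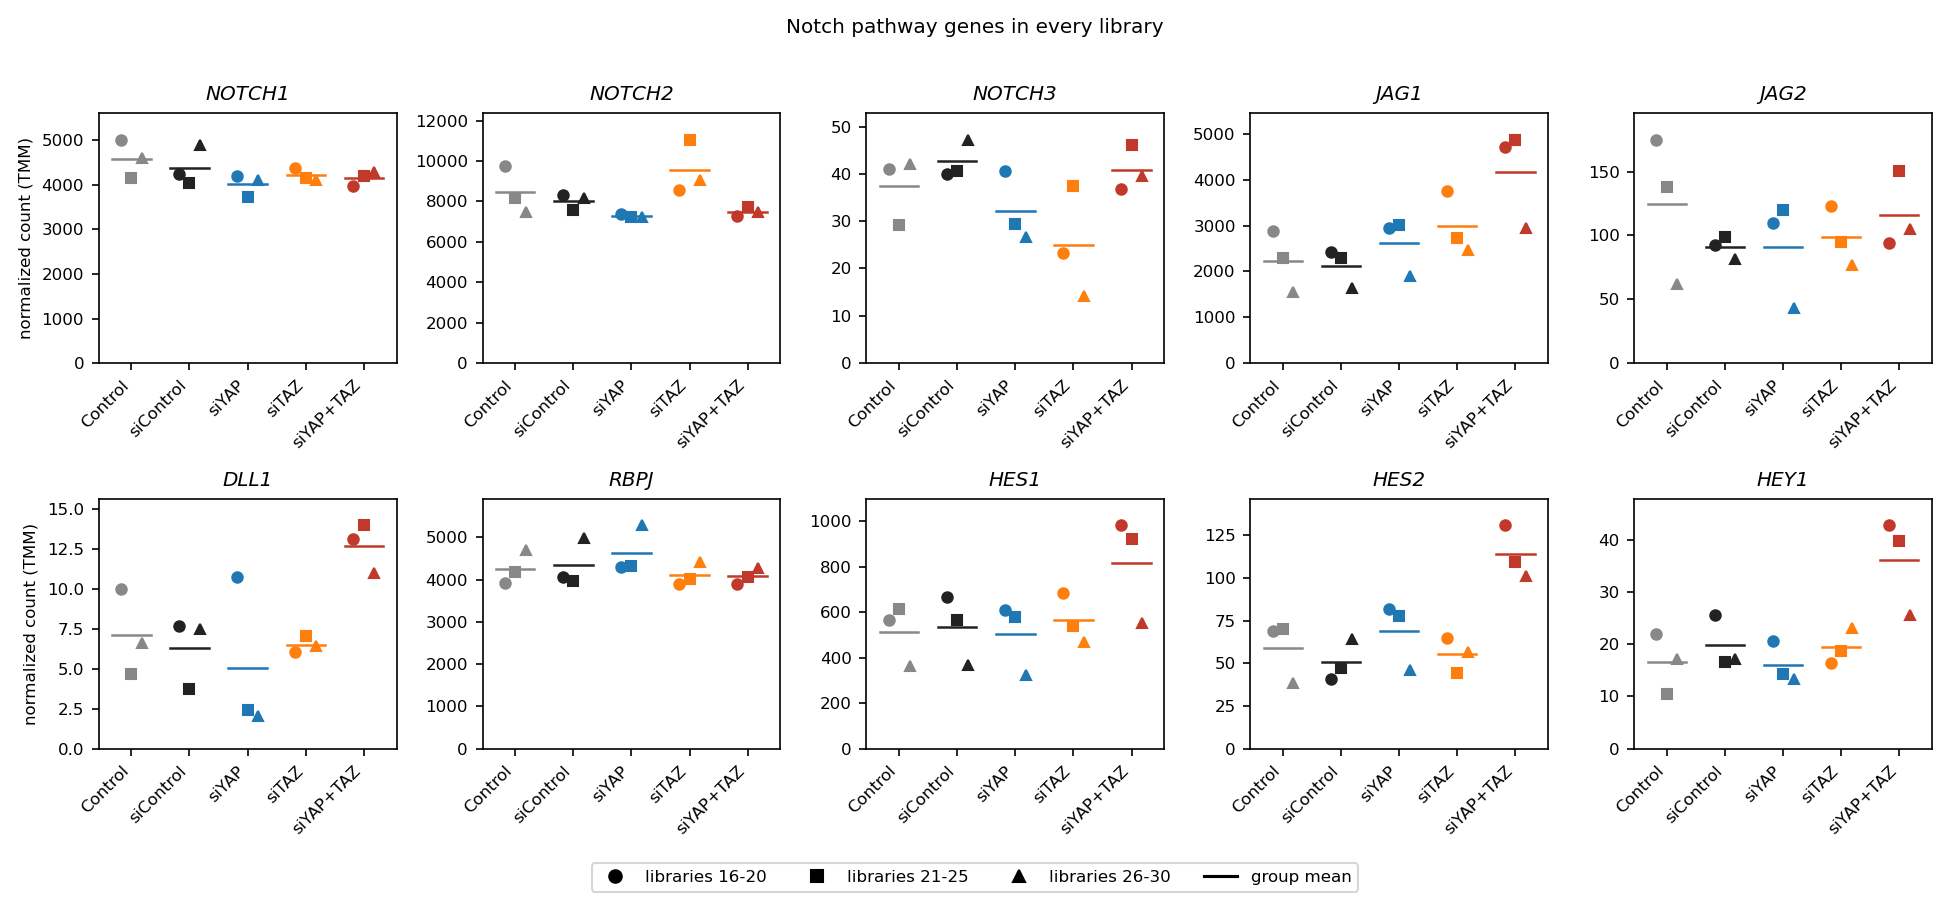
Normalized counts of the 10 genes in every library, on axes that start at 0. Colours are the 5 groups, symbols the runs of library numbers 16 to 20, 21 to 25 and 26 to 30, and lines the group means. The siYAP+TAZ libraries of HES2 stand above all others, and the triangles of JAG1 and HES1 are the lowest of every group.

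Libraries of neighbouring numbers moved together in JAG1 and HES1. In JAG1 and in HES1 the library numbered 26 to 30 was the lowest of its group in all 5 groups, and in RBPJ it was the highest in all 5, which held for 7.14% and 8.18% of all genes. The labels give each library a number and a group but do not say which libraries were made together, so the numbers were not taken as pairs in the main test. Deviations from the group means in siControl and siYAP+TAZ libraries of the same run correlated across genes at 0.22, 0.14 and 0.47, while those of siTAZ library 24 did not follow its run (-0.029 to 0.033). Across runs, siControl 17 with siYAP+TAZ 25 and siControl 22 with siYAP+TAZ 20 gave 0.28 and 0.18. In these groups the runs that start at 16 and 21 were thus not set apart from each other, and only libraries 26 to 30 stood apart. Set against the siControl library of its own run of numbers, JAG1 in siYAP+TAZ was 1.95-fold, 2.12-fold and 1.79-fold in the runs that start at 16, 21 and 26. HES1 gave 1.47, 1.63 and 1.49. These ratios were far more alike than the levels themselves. HES2 gave 3.20, 2.32 and 1.57 and HEY1 1.68, 2.39 and 1.497, and these 4 genes were higher in every run. So were DLL1, at 1.71, 3.78 and 1.47, and JAG2, at 1.01, 1.52 and 1.28, which makes 6 of the 10, beside 27.6% of all genes. Receptors and RBPJ gave ratios between 0.84 and 1.14.

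**Figure D4:**
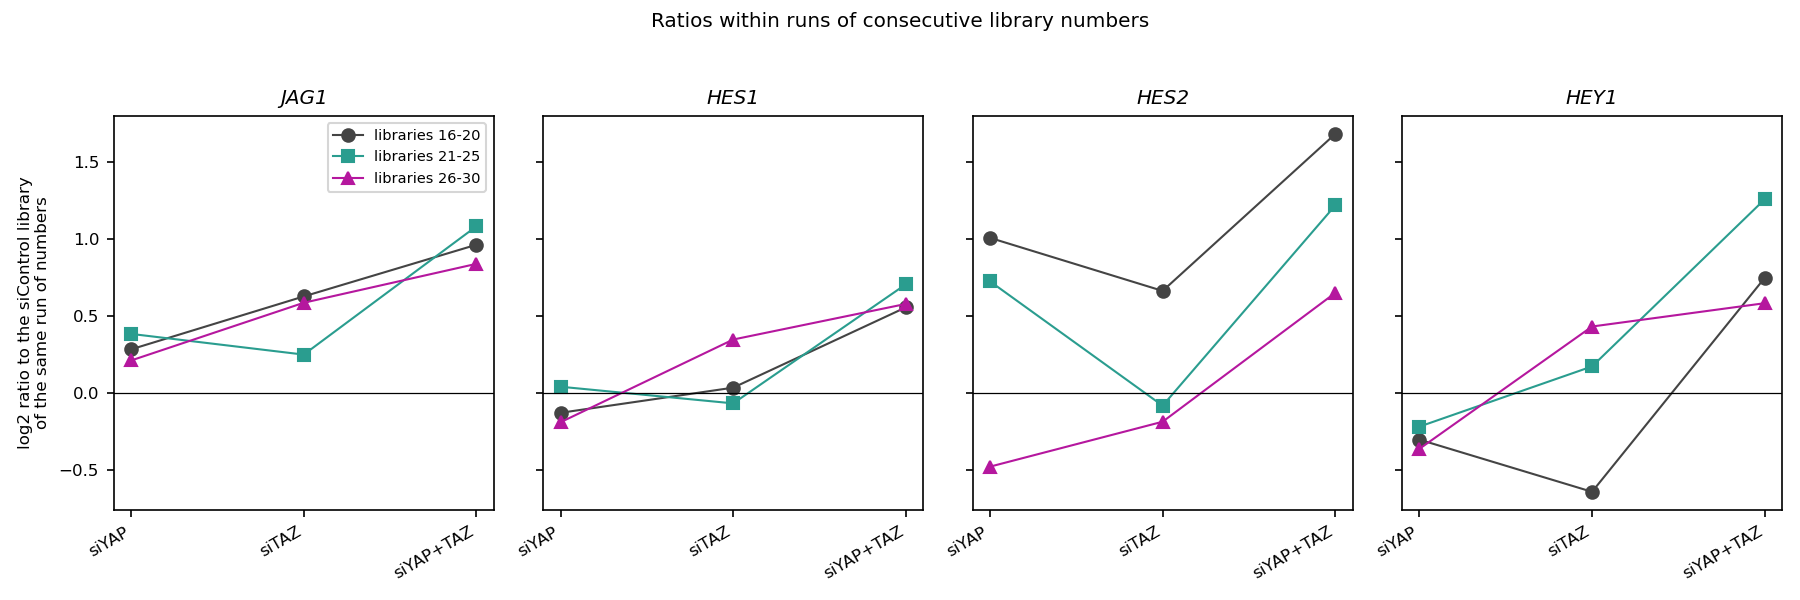
Log2 ratio of each knockdown library to the siControl library of the same run of consecutive numbers, for JAG1, HES1, HES2 and HEY1. Lines join the libraries of a run. The 3 lines of JAG1 and HES1 lie close together in siYAP+TAZ, at ratios of 1.79 to 2.12 and 1.47 to 1.63, and those of HES2 lie apart.

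Knockdown of YAP1 alone was compared with the same siControl libraries. None of the 10 genes passed the test, at either threshold, and none had an unadjusted p under 0.05, whereas 0.0955% of all genes passed both thresholds, 0.933% the adjusted p, and 11.9% had an unadjusted p under 0.05. In 1 gene, NOTCH2, the siYAP libraries lay apart from siControl, beside 19.5% of all genes. NOTCH2 had 7357, 7218 and 7246 normalized counts in siYAP libraries 18, 23 and 28, just below the lowest siControl library, with a log2 fold change of -0.14 (edgeR, SE 0.10, adjusted p = 0.62). JAG1 had 2953, 3003 and 1903 and overlapped with siControl, at a log2 fold change of 0.30 (SE 0.29, adjusted p = 0.78). HES2 had 82.0, 77.9 and 46.2, where libraries 18 and 23 were above and 28 within the siControl range, and the log2 fold change was 0.46 (SE 0.25, adjusted p = 0.51). HES1 and HEY1 were at -0.08 (SE 0.32) and -0.29 (SE 0.32). The remaining genes lay between -0.39, for NOTCH3, and 0.09, for RBPJ. Library 23, which kept 64.0% of YAP1, is 1 of the 3 libraries behind each of these values.

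Knockdown of WWTR1 alone was compared with siControl in the same way. In the fit without a block none of the 10 genes passed at either threshold, beside 0.212% of all genes at both and 2.03% at the adjusted p. At an unadjusted p under 0.05 there were 2, NOTCH2 and NOTCH3, beside 16% of all genes, and in 3 genes the siTAZ libraries lay apart from siControl, beside 20.9%. NOTCH2 had 8566, 11050 and 9072 normalized counts in siTAZ libraries 19, 24 and 29. All lie above siControl, library 24 the most, and the log2 fold change was 0.25 (edgeR, SE 0.10, adjusted p = 0.19), or 0.14 without siTAZ 24. NOTCH3 had 23.2, 37.5 and 14.1. All lie below siControl, with library 29 far under the others, and the log2 fold change was -0.76 (edgeR, SE 0.28, adjusted p = 0.18). JAG1 had 3746, 2736 and 2467, each above the highest siControl library, the last by little, with a log2 fold change of 0.49 (SE 0.29, adjusted p = 0.46). With the replicate block JAG1 passed (0.49, SE 0.09, edgeR adjusted p = 0.0021), beside 10.3% of all genes. HES1, HES2 and HEY1 were at 0.08, 0.14 and -0.06, with standard errors of 0.32, 0.27 and 0.33.

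The co-knockdown was also set against the single knockdowns themselves. In siYAP+TAZ against siYAP, HEY1 passed both thresholds, the single gene of the 10 to do so, beside 0.742% of all genes. HEY1 had 20.7, 14.3 and 13.4 normalized counts in siYAP, all below the siYAP+TAZ libraries, and the log2 fold change was 1.13 (edgeR, SE 0.31, adjusted p = 0.038). No gene of the 10 other than HEY1 passed the adjusted p, beside 5.13% of all genes. DLL1 (1.24, SE 0.50, adjusted p = 0.18), HES2 (0.71, SE 0.24, adjusted p = 0.10) and JAG1 (0.67, SE 0.29, adjusted p = 0.24) did not. With the replicate block 5 passed the adjusted p, JAG1, HES1, HES2, HEY1 and RBPJ, of which RBPJ was lower (log2 fold change -0.18, edgeR adjusted p = 0.037), beside 14.6% of all genes. HEY1 did not pass without siYAP 18, siYAP 23, siYAP 28, siYAP+TAZ 20 or siYAP+TAZ 25, and without siYAP 18 the 1 gene past both thresholds was DLL1, whereas without each of the other 4 it was 0.

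In siYAP+TAZ against siTAZ, HES2 passed both thresholds, 1 of the 10 genes, beside 0.78% of all genes. HES2 had 64.6, 44.5 and 56.6 normalized counts in siTAZ, all below the siYAP+TAZ libraries, and the log2 fold change was 1.03 (edgeR, SE 0.25, adjusted p = 0.022). NOTCH2 passed the adjusted p alone and was lower in siYAP+TAZ, at -0.35 (SE 0.10, adjusted p = 0.038), so that 2 of the 10 passed beside 5.44% of all genes. HEY1 was at 0.90 (SE 0.31, adjusted p = 0.11) and JAG1 at 0.48 (SE 0.29, adjusted p = 0.41). With the replicate block 5 passed the adjusted p, NOTCH2, JAG1, HES1, HES2 and HEY1, beside 14.8% of all genes. Without siTAZ 24, siTAZ 29, siYAP+TAZ 20 or siYAP+TAZ 25 the count at either threshold was 0, and without siYAP+TAZ 30 only HES2 passed the adjusted p. WWTR1 RNA was itself higher in siYAP+TAZ than in siTAZ (log2 fold change 1.13, SE 0.31, edgeR adjusted p = 0.065). The added knockdown of YAP1 cannot be told apart from this weaker depletion of WWTR1.

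Between the single knockdowns none of the 10 genes passed, beside 0.642% of all genes at the adjusted p. NOTCH2 came nearest, 0.39 lower in siYAP than in siTAZ on the log2 scale (log2 fold change -0.39, SE 0.10, edgeR adjusted p = 0.068), and passed with the replicate block, beside 7.32% of all genes. An interaction term asked whether the co-knockdown departed from what the single knockdowns add up to on the log2 scale. It can be read so only if each target is depleted alike alone and in the co-knockdown. WWTR1 RNA was at 14.1% to 45.8% of the siControl mean in siTAZ and 62.1% to 71.0% in siYAP+TAZ. Its own interaction was 1.14 (SE 0.43, edgeR adjusted p = 0.76). A departure in a Notch gene cannot be told apart from this unequal depletion. None of the 10 genes passed, and in the whole table edgeR called 2 genes (0.0106%) at the adjusted p and 5.85% at an unadjusted p under 0.05. Under that unadjusted limit were NOTCH3, with an interaction of 1.09 (SE 0.39, edgeR adjusted p = 0.70), and HEY1, with 1.19 (SE 0.45, adjusted p = 0.72). For JAG1 the interaction was 0.18 (SE 0.41) and for HES2 0.57 (SE 0.36). With the replicate block HES1 passed, at 0.597 (SE 0.13, edgeR adjusted p = 0.025), beside 0.647% of all genes. All of these comparisons draw on the same 15 libraries, and those with siControl share its 3 libraries.

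NOTCH2 has near copies in the genome, the NOTCH2NL genes, which bears on its counts. Of the 50-base stretches of its exons, 8.69% also occur in other genes, among them NOTCH2NLA, NOTCH2NLB, NOTCH2NLC, NOTCH2NLR and 3 NBPF genes. Of the NOTCH2NL genes, NOTCH2NLC was a row of the table, at 1.07 to 11.7 normalized counts in the 15 libraries, against 7218 to 11050 for NOTCH2. How reads that fit both were counted can therefore move NOTCH2 only through the shared stretches, and was not tested.

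Beyond the 10 genes, a list of 70 other genes of the pathway was examined, of which 63 were rows of the table. Their tests are given from fits without a block. In siYAP+TAZ against siControl, 3 of the 63 passed both thresholds, all higher, beside 3.46% of all genes. At the adjusted p alone 19 passed, 14 higher and 5 lower, beside 9.97% of all genes higher and 8.39% lower. The median log2 fold change of the 63 was 0.08. The count at the adjusted p fell to between 10 and 13 in all 6 fits that left out 1 library of these groups. It was 10 without siControl 17, 10 without siControl 22, 11 without siYAP+TAZ 25 and 12 without siYAP+TAZ 30. The 6 genes KAT2A, LFNG, LNX1, MAML3, NUMB and TLE3 passed in every fit that left out 1 library.

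MAML3, a Mastermind coactivator that bridges the Notch intracellular domain on RBPJ to the transcription machinery, had the highest fold change of the list. It had 61.2, 67.5 and 49.3 normalized counts in siControl, 83.5, 106 and 87.3 in siYAP, 101, 72.7 and 93.8 in siTAZ and 171, 206 and 173 in siYAP+TAZ. The siYAP+TAZ libraries lay above all others, and both single knockdowns lay above siControl and below siYAP+TAZ. The log2 fold change in siYAP+TAZ was 1.62 (edgeR, SE 0.18, adjusted p = 9.1e-06), and the direct differences of siYAP+TAZ from siYAP (0.99, adjusted p = 0.0024) and from siTAZ (1.03, adjusted p = 0.0024) passed the adjusted p. MGST2 on the opposite strand overlaps 3.68% of the exonic bases of MAML3, and it too rose in siYAP+TAZ, by 0.45 on the log2 scale (edgeR, SE 0.10, adjusted p = 0.0044), with values of 0.19 in siYAP and 0.31 in siTAZ that did not pass. Its part in the counts of MAML3 was not tested. Of the other coactivators, the acetyltransferase EP300 rose by 0.23 and KAT2A fell by 0.29 on the log2 scale.

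LFNG, Lunatic fringe, which adds sugars to the receptors and so shifts their preference between Delta and Jagged ligands, had 157, 144 and 124 normalized counts in siControl and 294, 315 and 329 in siYAP+TAZ. The groups were far apart, with a log2 fold change of 1.14 (edgeR, SE 0.14, adjusted p = 2.3e-05). Manic fringe, MFNG, rose by 0.76 (SE 0.22, adjusted p = 0.020), and POFUT1, which adds the fucose that fringes extend, fell by 0.22 on the log2 scale (SE 0.06, adjusted p = 0.022). The other 6 glycosylation genes of 9 did not pass, so 3 of 9 did, beside 18.4% of all genes.

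In the cleavage of the receptors, 3 of 9 genes rose, beside 9.97% of all genes, and none of the 3 passed in every fit that left out 1 library. They were the gamma-secretase subunits APH1B, at 0.57 (SE 0.16), and NCSTN, at 0.23 (SE 0.07), and the protease ADAM17, at 0.29 (SE 0.09), all on the log2 scale and with edgeR adjusted p-values of 0.018, 0.021 and 0.029. ADAM10, the main protease of ligand-bound receptors, was at 0.13 (adjusted p = 0.45).

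Among the corepressors that work with RBPJ, 4 of 12 passed, beside 18.4% of all genes, of which 3 are described. TLE3 passed in every fit that left out 1 library, and CIR1 and HDAC2 did not. TLE3, a Groucho corepressor that HES proteins also use, had 2912, 2878 and 2836 normalized counts in siControl, 2887, 3166 and 2849 in siYAP, 3365, 3986 and 3725 in siTAZ and 4265, 4806 and 4455 in siYAP+TAZ. Its siTAZ libraries lay between those of siControl and siYAP+TAZ, and siYAP overlapped with siControl. The log2 fold change was 0.65 (edgeR, SE 0.07, adjusted p = 8.4e-06) in siYAP+TAZ and 0.36 (SE 0.07, adjusted p = 0.013) in siTAZ. CIR1 rose (0.39, adjusted p = 0.026) and the deacetylase HDAC2 fell (-0.24, adjusted p = 0.011).

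Of the 15 genes of endocytosis and degradation, 4 rose and 2 fell in siYAP+TAZ, beside 9.97% and 8.39% of all genes. Of these 6, NUMB and LNX1 passed in every fit that left out 1 library, and DTX3L, NEURL1B, FBXW7 and NEDD4 did not. NUMB, an inhibitor that sends receptors to be degraded, rose by 0.28 (edgeR, SE 0.07, adjusted p = 0.0077), and DTX3L by 0.28 (adjusted p = 0.047). LNX1, a ubiquitin ligase of NUMB, had 29.8, 33.3 and 24.7 normalized counts in siControl and 58.3, 47.3 and 72.5 in siYAP+TAZ, without overlap, with a log2 fold change of 1.02 (SE 0.22, adjusted p = 0.0031). FIP1L1, which covers 33.8% of the exonic bases of LNX1 from the opposite strand, was at -0.20 (adjusted p = 0.083). NEURL1B, a ubiquitin ligase related to the one that helps ligands into endocytosis, rose by 0.61 (SE 0.16, adjusted p = 0.011) in siYAP+TAZ and by 0.77 (SE 0.16, adjusted p = 0.015) in siTAZ. FBXW7, which marks the Notch intracellular domain for degradation, fell by 0.31 (adjusted p = 0.039), and NEDD4 fell by 0.28 (adjusted p = 0.046).

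In the fit without a block, none of the 6 other HES, HEY and direct target genes passed in siYAP+TAZ, nor did any of 4 other receptors and ligands, beside 18.4% of all genes. Values with the replicate block, with which HES1 and HEY1 passed, are not given for these genes. Chosen here after their values were seen, HES4 had a mean of 1947 ± 503 normalized counts in siControl and 2006 ± 600 in siYAP+TAZ (SD, n = 3; log2 fold change 0.04, SE 0.32), and NRARP, an inhibitor of Notch that Notch itself induces, had 98.8 ± 28.4 and 64.3 ± 16.0 (-0.64, SE 0.26, edgeR adjusted p = 0.10).

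**Figure D5:**
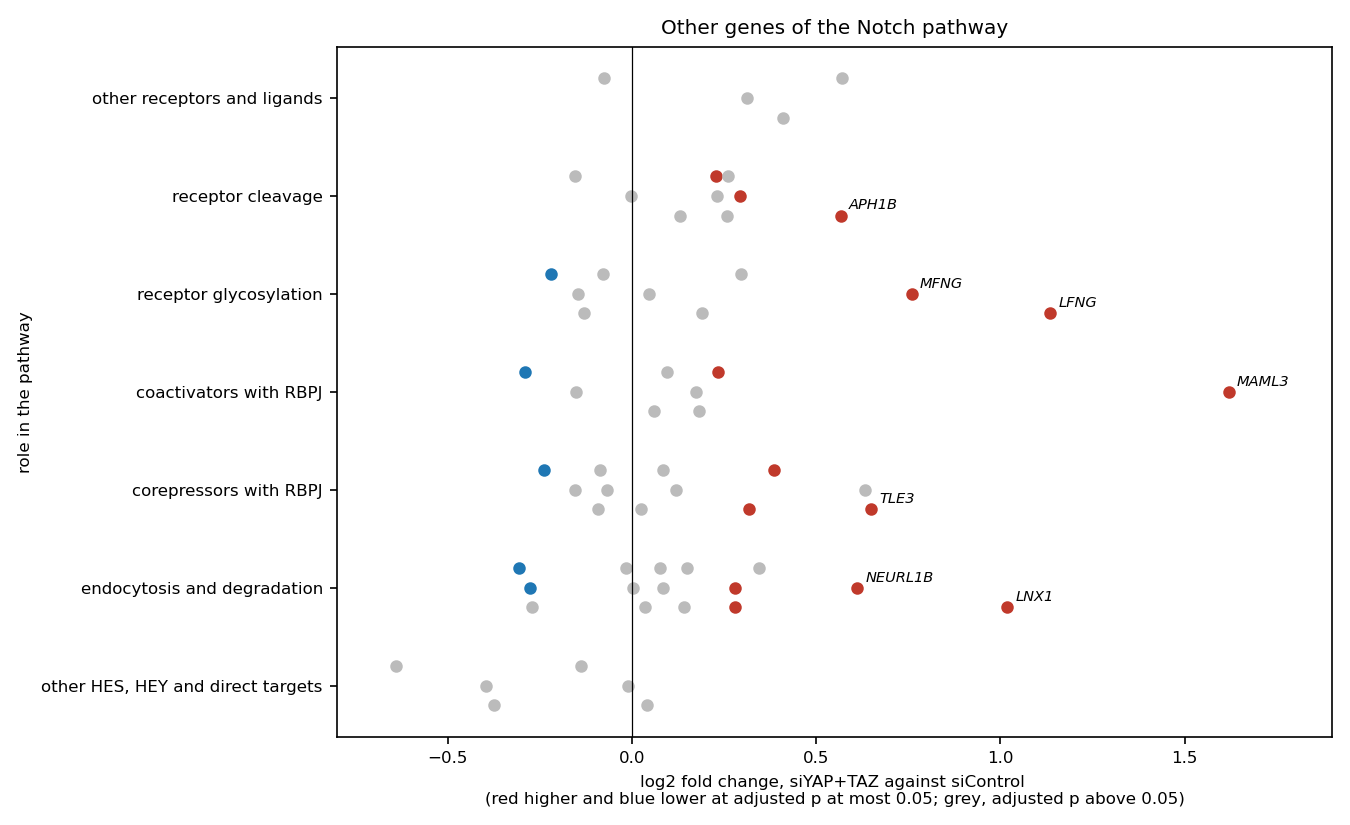
Log2 fold change of siYAP+TAZ against siControl (horizontal axis) for the 63 other genes of the pathway, in rows by role. Red points are higher and blue points lower past the adjusted p limit of 0.05, while grey points did not pass. MAML3, LFNG and LNX1 lie beyond 1.

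In siYAP against siControl none of the 63 passed, beside 0.933% of all genes at the adjusted p, and 8 had an unadjusted p under 0.05, a share near the 11.9% of all genes. In siTAZ 2 passed the adjusted p alone, TLE3 and NEURL1B, both higher, beside 1.34% of all genes. The count in siTAZ was 0 without siControl 17, siControl 22 or siTAZ 24, 1 without siTAZ 29 and 5 without siTAZ 19.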

How the data were processed

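Expression in MDA-MB-231 cells was read from 15 libraries, put in 5 groups by the sample names. The authors trimmed single reads, aligned them to GRCh38 (GENCODE release 34) with STAR 2.4.2a, and deposited the raw counts of reads on each gene, which were the input of every test. The deposited normalized and rlog columns, and the authors' DESeq2 fold changes and p-values for pairs of groups, were not used. Counts were normalized by TMM and tested in R 4.3.3 with edgeR 4.0.16 (quasi-likelihood, robust, one coefficient per group, 15 libraries, no block), with Benjamini-Hochberg adjustment over all 18858 genes. Genes with few counts carry large errors at this depth. Standard errors are the log2 fold change divided by the square root of F, and they and the p-values measure the spread between libraries, which may be technical in part. The test was also run on simulated counts, drawn independently for each library. They held no shift shared by a run of library numbers, so the check does not cover that case. Other settings tried were DESeq2 1.42.0 run as the methods state, limma-voom (limma 3.58.1), scaling by DESeq2 size factors or by library size, at least 10 reads in at least 3 libraries, filterByExpr, only the compared groups, Control as reference, a block for runs of library numbers, and each library left out in turn. The same alternatives for the wider pathway list were added after the data were seen. Lengths, overlaps and shared stretches came from GENCODE release 44, promoter windows from RefSeq on GRCh38.p14.

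The 10 genes and all lists were chosen with earlier results of these data known. The text names all 10, YAP1 and WWTR1, and the genes of the wider list with an adjusted p of at most 0.05 in a knockdown against siControl, at most 20, other than items not reported here. ADAM10, HES4 and NRARP were named in addition, after their values were seen.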

Additional observations from a re-analysis of the deposited data

Results flagged for a closer look

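In NOTCH2 the libraries of the single knockdowns lay on opposite sides of siControl. Every siYAP library lay below every siControl library and every siTAZ library lay above, at log2 fold changes of -0.14 and 0.25, neither of which passed (edgeR adjusted p = 0.62 and 0.19). Libraries lay wholly lower in siYAP in 9.86% of all genes and wholly higher in siTAZ in 10.7%, and the share with both was not counted. NOTCH2 was picked by this pattern, which already sets siYAP apart from siTAZ. Their direct difference is therefore no separate support. Against Control the siTAZ libraries overlapped, since Control library 16, at 9770 normalized counts, lay above siTAZ libraries 19 and 29, at 8566 and 9072. The direct log2 fold change of siYAP against siTAZ was -0.39 (SE 0.10, edgeR adjusted p = 0.068), which did not pass the threshold. It passed with DESeq2, with a block for runs of library numbers and without siTAZ 19, where NOTCH2 was the 1 gene of the 10 at an adjusted p of at most 0.05. Stretches shared with NOTCH2NL and NBPF genes make up 8.69% of its 50-base stretches, and their part in this difference was not tested.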

How the results depend on the processing

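Of the 10 Notch genes, HES2 kept its adjusted p in siYAP+TAZ against siControl in all 15 alternatives, JAG1 in 8, HEY1 passed in 4 and HES1 in 1. With 3 libraries a group, and 2 to 47 reads behind each value of DLL1, HEY1 and NOTCH3 outside siYAP 18, small differences in these genes were not detectable at this depth. In siYAP+TAZ against siControl the number past both thresholds was 2 with library size only, and the number at the adjusted p alone 1 with only the compared groups. Against siYAP both numbers were 0 with only the compared groups. Against siTAZ the number at the adjusted p was 1 with library size only and 1 with only the compared groups. DESeq2 gave 1 in siYAP against siTAZ. Leaving out each library gave 1 to 3 genes past both thresholds and 1 to 3 at the adjusted p in siYAP+TAZ against siControl, 0 to 1 and 0 to 1 against siYAP, 0 to 1 and 0 to 2 against siTAZ, and 0 to 1 at the adjusted p in siYAP against siTAZ. The causes were not tested.

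A replicate block for runs of neighbouring library numbers rests on a number that the labels do not call a pairing. Deviations from the group means correlated above 0.1 in 26 of 30 pairs of libraries of the same run (median 0.33, range -0.029 to 0.55) and in 15 of 60 other pairs. Among the other pairs, siControl 17 with siYAP+TAZ 25 reached 0.28. With the block, 4 of the 10 genes passed the adjusted p in siYAP+TAZ against siControl (JAG1, HES1, HES2 and HEY1), 1 in siTAZ (JAG1), 5 against siYAP, 5 against siTAZ, 1 between the single knockdowns (NOTCH2) and 1 in the interaction (HES1), while 28.6% of all genes passed in siYAP+TAZ against siControl in place of 18.4%.

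Log2 fold changes that turned sign were all of genes that did not pass. Against Control in place of siControl, NOTCH3 was at 0.13 and JAG2 at -0.12 in siYAP+TAZ, JAG2 at -0.45 in siYAP, and JAG2 at -0.34, DLL1 at -0.15, HES2 at -0.10 and HEY1 at 0.20 in siTAZ. JAG2 in siYAP was at -0.076 with limma-voom and -0.020 with the replicate block. Leaving out each library moved NOTCH1 from -0.14 to 0.0061, NOTCH3 from -0.15 to 0.019 and RBPJ from -0.15 to 0.021 in siYAP+TAZ. In siYAP it moved JAG2 from -0.21 to 0.33, DLL1 from -1.44 to 0.13, RBPJ from -0.011 to 0.20 and HES1 from -0.28 to 0.15. In siTAZ it moved NOTCH1 from -0.12 to 0.026, JAG2 from -0.082 to 0.27, DLL1 from -0.23 to 0.22, RBPJ from -0.14 to 0.034, HES1 from -0.12 to 0.27, HES2 from -0.0017 to 0.34 and HEY1 from -0.19 to 0.18.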
